A study of Mus musculus with 2 samples.

Results

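Mir208a, Mir208b and Mir499 are the 3 miRNA genes that lie inside myosin heavy chain genes, and their levels were measured by microRNA-seq in the embryonic mouse heart. They were picked by gene identifier among the 1973 miRNA genes of the deposited count tables, and all 3 were detected, meaning 10 or more counts in each library, as were 365 genes in all. The samples were 2 libraries of total RNA from hearts of healthy B6NCrl embryos of both sexes at embryonic day 16.5, with a stated library size range under 30 (unit not given). They are labelled biological replicates of a single group, with no genotype, treatment or other contrast. The hearts of replicate 2 came from 41 embryos, the labels used here do not number the embryos of replicate 1, and neither library can show the spread between single embryos. Counts of reads on the strand of each gene (sense counts) were divided by their total, 6473482 in replicate 1 and 5841568 in replicate 2, and are given as counts per 1000000 (CPM).

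A miRNA is cut from a hairpin in a longer transcript and pairs with target mRNAs mainly through its seed, the bases 2 to 8 from its 5′ end. Mir208a lies in Myh6, the gene of the fast alpha myosin heavy chain of heart muscle, Mir208b in Myh7, that of the slow beta chain, and Mir499 in Myh7b, a related myosin gene. In the mouse, Myh7 is the main myosin of the ventricle before birth and Myh6 takes over after birth, while Myh6 is active in the atria throughout. The miRNAs of these genes are known as regulators of the balance between fast and slow muscle genes and of the growth of the heart under stress.

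The mature sequences are shown first because the 3 genes are grouped by them as well as by their hosts. They come from RefSeq (GRCm38.p6, the build also called mm10), which held all 3 genes, and capitals mark the seed. The arms listed here are those usually given as the main products of these genes, and the count tables hold 1 value per gene and do not separate the arms.
mmu-miR-208a-3p: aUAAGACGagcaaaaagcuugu
mmu-miR-208b-3p: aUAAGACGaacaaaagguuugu
mmu-miR-499-5p: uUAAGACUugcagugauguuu

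The seeds of miR-208a-3p and miR-208b-3p were identical over all 7 bases, and miR-499-5p shared 6 of the 7. The 6 bases 2 to 7 (UAAGAC) occurred at this place in 3 of 1738 mature mouse miRNAs of the RefSeq table, which were the 3 miRNAs shown. Bases 2 to 8 were shared by miR-208a-3p and miR-208b-3p with no other entry, and those of miR-499-5p (UAAGACU) had no second entry. Beyond the seed the miR-208 pair stayed alike, with 19 of 22 bases in common. Counted from the 5′ end, miR-208a-3p and miR-208b-3p differed by G10A, A16G and C18U, with the base of miR-208a-3p first. miR-499-5p shared 12 of 21 bases with miR-208a-3p and 10 of 21 with miR-208b-3p, so that it resembled them mainly in the seed.

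The opposite arms of the miR-208 hairpins also shared their seed with each other. Again, capitals mark bases 2 to 8.
mmu-miR-208a-5p: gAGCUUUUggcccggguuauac
mmu-miR-208b-5p: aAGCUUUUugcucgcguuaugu
mmu-miR-499-3p: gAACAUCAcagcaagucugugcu
In this arm, 3 of the 1738 entries had the miR-208 seed, the third being that of Mir6415. Mir6415 and Mir7223, which shares bases 2 to 7 of this arm, had 0 counts in both libraries. Mir3101, which also shares bases 2 to 7 of this arm, had 2 counts in replicate 1 and 5 in replicate 2. Mir448, which shares bases 2 to 7 with miR-499-3p, had 5 counts in replicate 1 and 1 in replicate 2. Genes that share seed bases with the opposite arms were thus at or near the limit of detection in these hearts.

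The hairpins are shown to place the mature miRNA, in capitals, on its arm, which is the 3′ arm in the miR-208 genes and the 5′ arm in Mir499. The Mir208a hairpin has 83 bases, that of Mir208b 77 and that of Mir499 79.
Mir208a hairpin: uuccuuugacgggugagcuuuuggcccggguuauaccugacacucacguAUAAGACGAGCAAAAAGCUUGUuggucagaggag
Mir208b hairpin: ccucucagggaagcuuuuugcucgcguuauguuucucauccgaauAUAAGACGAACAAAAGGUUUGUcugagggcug
Mir499 hairpin: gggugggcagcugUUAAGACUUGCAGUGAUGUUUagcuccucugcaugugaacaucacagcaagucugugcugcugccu

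Each gene lay within an intron of its host and on the same strand, in mm10 with the GENCODE M21 annotation. Mir208a (ENSMUSG00000065432.1, chr14:54949060-54949142, minus strand) lay in intron 29 of 38 of the Myh6 transcript, Mir208b (ENSMUSG00000077928.1, chr14:54975700-54975776, minus strand) in intron 31 of 40 of Myh7, and Mir499 (ENSMUSG00000076312.1, chr2:155622880-155622958, plus strand) in intron 19 of 41 of Myh7b. No exon of any transcript of the hosts overlapped a hairpin, and no gene was annotated on the opposite strand there. The introns were short and of like length, 542 bases in Myh6, 461 in Myh7 and 481 in Myh7b. The hairpins of the miR-208 genes began 17499 and 18850 bases from the transcript start, at 70.8% and 78.7% of the transcripts. That of Mir499 began 11668 bases from the start, at 50.5% of its transcript. Myh6 and Myh7 are neighbours, with 3756 bases between them, and 26557 bases separated their hairpins.

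**Figure D1:**
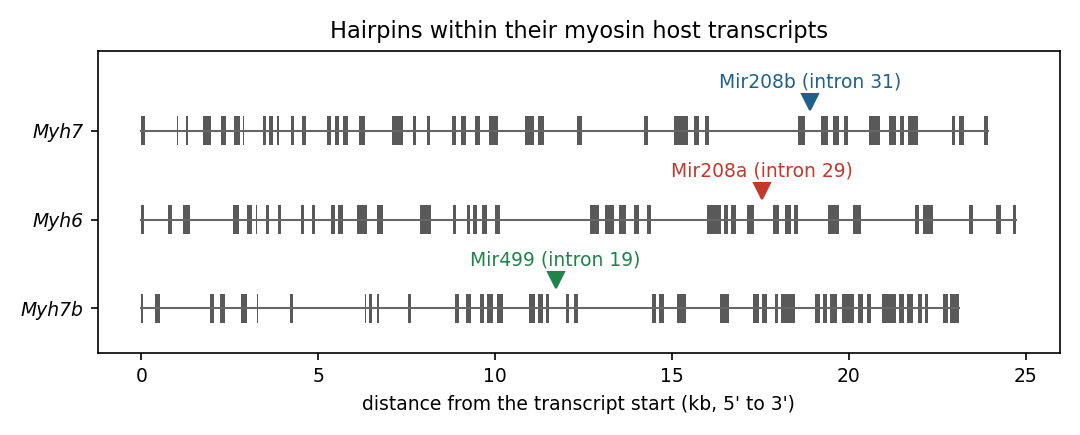
Host transcripts of the 3 miRNA genes drawn to scale from the transcript start (kb), with exons as grey boxes and a triangle at each hairpin. Mir208a (intron 29 of Myh6) and Mir208b (intron 31 of Myh7) lie at like places of their transcripts, and Mir499 (intron 19 of Myh7b) lies nearer the middle.

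Mir208b was the most abundant of the 3 genes, Mir208a followed and Mir499 was the lowest, in both libraries. Mir208b, from the beta myosin gene, had 382517 counts in replicate 1 and 335494 in replicate 2, or 59090 and 57432 CPM. Mir208a, from the alpha myosin gene, had 39025 and 41382 counts, or 6028 and 7084 CPM. Mir499 had 16730 and 15209 counts, or 2584 and 2604 CPM. The lowest Mir208b value was thus far above the highest Mir208a value, and the lowest Mir208a value above the highest Mir499 value, so that the genes did not overlap. The mean was 58261 ± 1172 CPM for Mir208b, 6556 ± 746 CPM for Mir208a and 2594 ± 13.6 CPM for Mir499 (SD, n = 2). In percent of the mean, the spread between libraries was 11.4% for Mir208a, 2.01% for Mir208b and 0.523% for Mir499. Whether the ligation and amplification steps read these miRNAs with equal efficiency was not tested, so an order of counts need not be an order of molecules. In whole hearts, fewer cells of a type and less RNA per cell cannot be told apart.

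Counting error was small beside these differences. The exact Poisson 95% interval of Mir499, the gene with the fewest counts, was 2545 to 2624 CPM in replicate 1 and 2562 to 2645 CPM in replicate 2, and these intervals overlapped. For Mir208a they were 5969 to 6089 CPM and 7016 to 7153 CPM, which did not overlap. For Mir208b they were 58903 to 59277 CPM and 57238 to 57627 CPM, which did not overlap either. The labels name no molecular identifiers, and PCR copies are not separate molecules, so these and all other intervals cover counting error only.

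**Figure D2:**
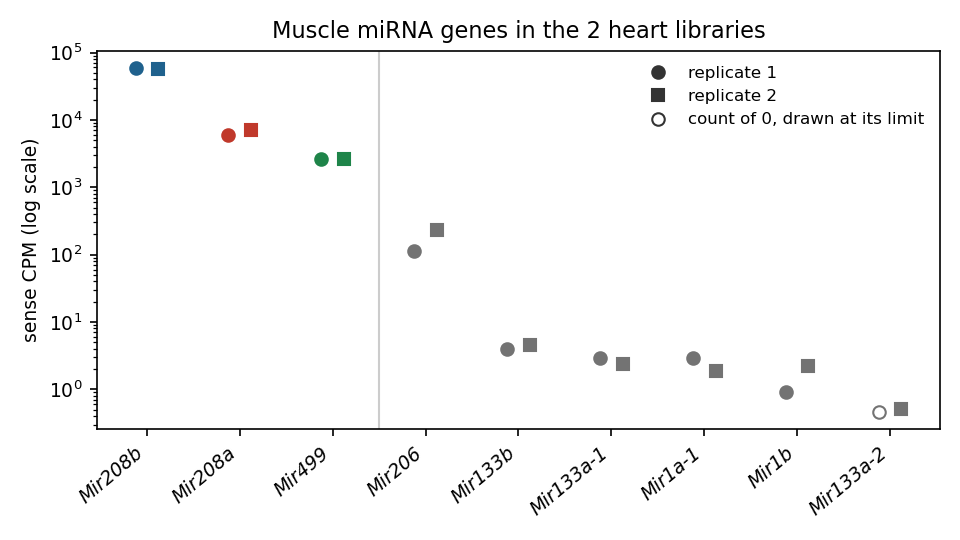
Sense CPM (log scale) of the 3 miRNA genes of myosin hosts, left of the line, and of the 6 other listed muscle miRNA genes, with a circle for replicate 1 and a square for replicate 2. Mir208b, Mir208a and Mir499 lie above all others, whose highest value is 234 CPM (Mir206 in replicate 2), and the open circle is a count of 0 drawn at the limit it allows (0.463 CPM).

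Among all listed genes Mir208b ranked 5 in replicate 1 and 7 in replicate 2. Ranks are by counted reads, and genes with near-identical copies may stand too low, since reads that match several places are left out. Its nearest genes by level, measured as the distance of log2 CPM over both libraries, were Mir99a, Mirlet7i and Mirlet7g. Mir99a stood at 58388 and 58838 CPM and Mirlet7i at 55451 and 58436 CPM, so both were below Mir208b in replicate 1 and above it in replicate 2. Mir208b therefore did not differ from these neighbours beyond the spread between libraries, while Mirlet7g (54739 and 50101 CPM) was below it in both.

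Mir208a ranked 23 in both libraries, in a gap of the order. Mir22, next above it by mean level, stood at 10527 and 10073 CPM, a mean 1.57 times as high. Its nearest genes were below it in both libraries. They were Mir100 (5774 and 5631 CPM), Mir98 (5858 and 5509 CPM) and Mir411 (5788 and 5431 CPM), and each lay closer to Mir208a in replicate 1 than in replicate 2.

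Mir499 ranked 46 and 44. Its nearest genes were Mir181c (2699 and 2662 CPM), Mir369 (2493 and 2510 CPM) and Mir542 (2722 and 2669 CPM), with Mir181c and Mir542 above and Mir369 below it in both libraries. Its levels of 2584 and 2604 CPM did not overlap with the 2 values of any of these. The differences of the means were small (3.34% from Mir181c and 3.56% from Mir369, as a share of the mean level of Mir499). A spread from 2 libraries is poorly known, and whether these genes differ in level was not tested. Likeness was taken over 2 libraries of a single group and describes level only.

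**Figure D3:**
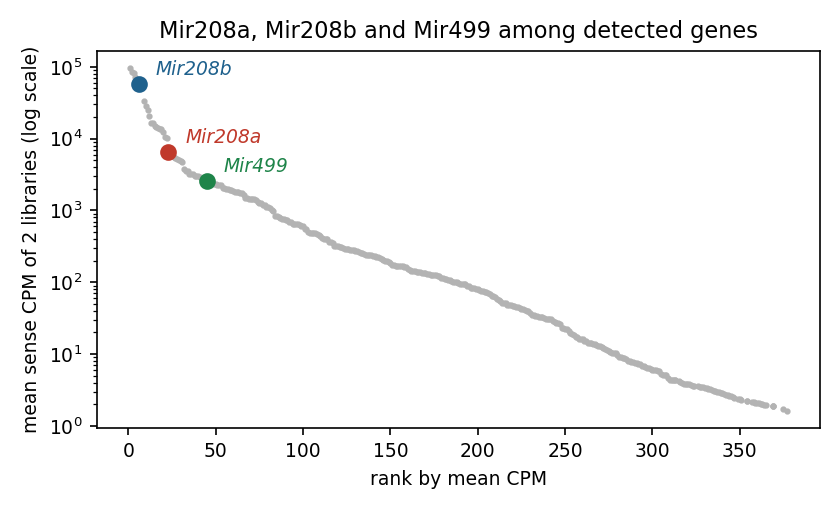
Mean sense CPM of 2 libraries (log scale) of the 365 detected miRNA genes against their rank, one grey point per gene. Mir208b lies in the steep first part at rank 6 by mean level, Mir208a at rank 23 and Mir499 at rank 45, where the curve has become flatter.

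All reads at the 3 genes came from the strand of the gene. None had an opposite-strand count in either library. For Mir208b this allows an opposite-strand share of up to 0.000784% in replicate 1, and for Mir499 in replicate 2, the highest limit of the 3 genes, up to 0.0197%. This set them apart from few genes, since 333 of the 365 detected genes (91.2%) had no opposite-strand count.

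Reads with more than 1 matching place in the genome made up 29.5% of replicate 1 and 31.9% of replicate 2 and are in no gene's count. The hairpins of the 3 genes shared no run of 20 bases with any of 2201 other miRNA hairpins of the annotation. The longest run that any of them shared was 12 bases, and Mir208a and Mir208b shared at most 10 bases with each other. The mature miR-208a-3p and miR-208b-3p had 9 bases in common before their first difference. A full-length read of either therefore carries the bases that tell them apart, but how many mismatches the authors' alignment allowed was not given in the sources used here.

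The 3 genes together held nearly the same part of the library in both pools, while its division among them differed. Their sum was 6.77% of sense counts in replicate 1 (Wilson 95% interval 6.75 to 6.79%) and 6.71% in replicate 2 (6.69 to 6.73%), a mean of 6.74% ± 0.041 (SD, n = 2). Mir208b made up 87.3% of the sum in replicate 1 and 85.6% in replicate 2. Mir208a made up 8.90% and 10.6%, and Mir499 3.82% and 3.88%. The share of Mir208a thus differed between pools by more than its counting error, its Wilson 95% intervals being 8.82 to 8.99% and 10.5 to 10.7%. The intervals of Mir499 overlapped, at 3.76 to 3.87% and 3.82 to 3.94%.

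**Figure D4:**
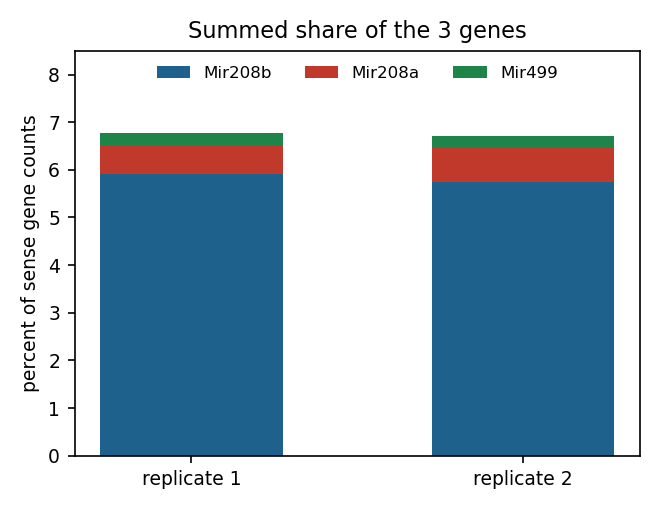
Percent of sense gene counts held by Mir208b (blue), Mir208a (red) and Mir499 (green) in each library, stacked from 0. The bars reach 6.77% in replicate 1 and 6.71% in replicate 2, and the red segment is the one that is visibly larger in replicate 2.

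Ratios of 2 genes within a library need no scaling, and the 3 possible pairs were compared between the pools with a two-sided Fisher's exact test, adjusted over the 3 pairs by the Benjamini-Hochberg method. Mir208b exceeded Mir208a 9.80-fold in replicate 1 (exact 95% interval 9.70 to 9.90) and 8.11-fold in replicate 2 (8.02 to 8.19), so that the ratio was 1.21 times as high in replicate 1 (adjusted p = 4.69e-143, exact). Mir208a exceeded Mir499 2.33-fold (2.29 to 2.38) and 2.72-fold (2.67 to 2.77), a ratio 1.17 times as high in replicate 2 (adjusted p = 4.35e-31, exact). Mir208b exceeded Mir499 22.9-fold (22.5 to 23.2) and 22.1-fold (21.7 to 22.4), which differed by 1.04 times (adjusted p = 0.00175, exact). The pairs that hold Mir208a thus moved most, and the genes of Myh7 and Myh7b, on different chromosomes, kept nearly the same proportion. On the log2 scale the ratio of Mir208b over Mir499 was 4.49 ± 0.037 (SD, n = 2). These tests compare 2 libraries by counting error alone, and the genes kept their order in both.

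The pools were then compared gene by gene over all detected genes, after TMM scaling. Mir208a was 1.20-fold higher in replicate 2, Mir499 was 1.03-fold higher and Mir208b was 1.01-fold lower. On the log2 scale, replicate 2 over replicate 1 gave 0.26 (exact 95% interval 0.24 to 0.28) for Mir208a, 0.036 (0.0044 to 0.068) for Mir499 and -0.016 (-0.022 to -0.0089) for Mir208b. In a two-sided exact binomial test with Benjamini-Hochberg adjustment over 365 genes, the adjusted p was 8.72e-141 for Mir208a, 1.68e-05 for Mir208b and 0.0539 for Mir499. Calls were made at a difference of 2-fold or more with an adjusted p below 0.05, and none of the 3 genes was called, against 12 of 365 genes or 3.29%. With no minimum fold Mir208a and Mir208b passed and Mir499 did not, against 169 of 365 genes or 46.3% (26.0% higher and 20.3% lower in replicate 2). Of the 82 genes with a mean of at least 1000 CPM, 65 passed without a minimum fold, so that at these depths passing is common and says little about size. Each side of this test is 1 library, so its p-values rest on counting error in PCR reads and compare these libraries only.

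In size, the shift of Mir208a was above the middle of the genes of its level and those of the other genes were small. The median absolute log2 ratio was 0.14 over the 82 genes of at least 1000 CPM and 0.21 over all 365. Of the 82 genes, 18 differed more between pools than Mir208a, 65 differed more than Mir499 and 70 differed more than Mir208b. The biological coefficient of variation over all detected genes, estimated by edgeR after TMM scaling and without any contrast, was 17.6%. The 11.4% given for Mir208a is the SD over the mean of CPM without TMM scaling. These are unlike measures, so neither is read against the other.

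**Figure D5:**
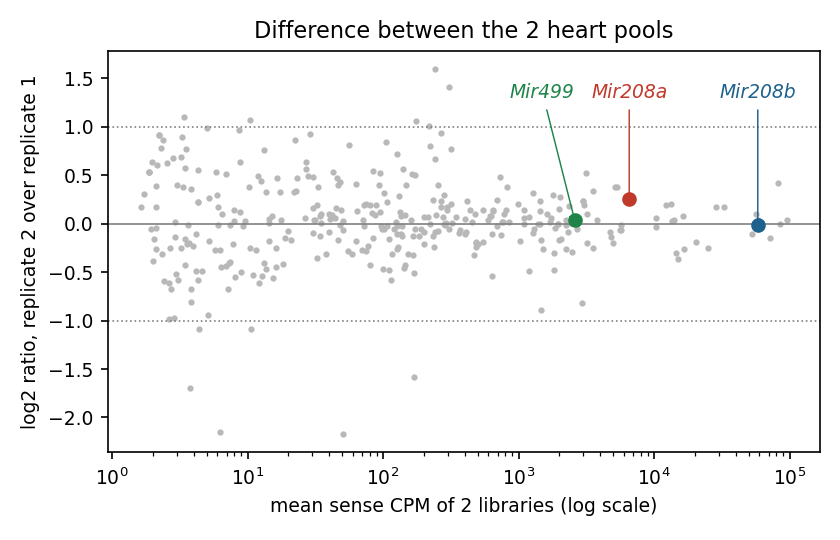
Log2 ratio of replicate 2 over replicate 1 after TMM scaling against mean sense CPM (log scale), one grey point per detected gene, with dotted lines at a 2-fold difference and exact 95% intervals as bars, which are hidden by the symbols. Mir208a lies at 0.26, Mir499 at 0.036 and Mir208b at -0.016, all well inside the dotted lines.

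The other muscle miRNA genes gave few counts beside those of the myosin hosts. The list held Mir1a-1, Mir1a-2, Mir1b, Mir133a-1, Mir133a-2, Mir133b and Mir206, and 6 of the 7 were among the listed genes, Mir1a-2 not. Presence was judged by GENCODE M21 name, which 1894 of 1973 identifiers had. A gene under an unmatched identifier would appear absent. Mir206, which is known from skeletal muscle, had 742 counts in replicate 1 and 1369 in replicate 2, or 115 and 234 CPM. The remaining 5 had at most 27 counts in a library, and 4 of the 6 were detected. Of these 4, Mir206 was 2.08-fold higher in replicate 2 (adjusted p = 5.3e-60, exact binomial test over 365 genes), and Mir1a-1 (adjusted p = 0.404), Mir133a-1 (adjusted p = 0.825) and Mir133b (adjusted p = 0.702) did not pass the same exact test, which again compares 2 libraries by counting error. Summed, Mir208a, Mir208b and Mir499 had 438272 counts in replicate 1 against 812 for the 6 other genes, and 392085 against 1437 in replicate 2.

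The counts of most miR-1 and miR-133 genes may miss reads. miR-1 and miR-133 are heart and skeletal muscle miRNAs made from several near-identical genes. The hairpin of Mir1a-1 shared a run of 28 bases with that of Mir1a-2, and Mir133a-1 and Mir133a-2 shared 31 bases, with Mir133b sharing 21. Mir1b, with 6 and 13 counts, shared at most 13 bases with any other hairpin. Reads on its opposite strand, 115 in replicate 1 and 135 in replicate 2, are in none of the sums given above. Reads that match several places are in no gene's count, and how many of them came from these genes was not tested. No order between the myosin-hosted miRNAs and the miR-1 or miR-133 family follows from these files.

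Markers of other cell types were present and are given for the comparison of the pools. Both smooth muscle genes were detected, with summed levels of 97336 and 98086 CPM led by Mir143, and all 3 endothelial genes, with 85979 and 84356 CPM led by Mir126a. The 3 erythroid genes, led by Mir451a, summed to 2118 and 1805 CPM. The 3 leukocyte genes among the listed genes, led by Mir223, summed to 586 and 717 CPM, and the liver gene Mir122 stood at 160 and 161 CPM. None of the 5 listed genes of the neural list, which held miR-9 and miR-124 genes, was detected and 2 had no count in either library, the highest being Mir9-3 with 2.47 and 0.171 CPM. Each of these 5 hairpins shared a run of 26 to 33 bases with other hairpins, so reads that match several of them are not in these counts, and neural genes outside this list are not described here. Between pools, the sums were compared in CPM without TMM scaling. The summed level of Mir208a, Mir208b and Mir499 was 1.01-fold higher in replicate 1. That of the endothelial genes was 1.02-fold higher in replicate 1 and that of the smooth muscle genes 1.01-fold higher in replicate 2. The TMM factors were 1.009 in replicate 1 and 0.991 in replicate 2, so the direction of differences this small can depend on the scaling. The erythroid sum was 1.17-fold higher in replicate 1 and the leukocyte sum 1.22-fold higher in replicate 2. Mir206 moved 2.08-fold after TMM scaling, as given above. After TMM scaling, the genes of a list moved unlike each other. As replicate 2 over replicate 1, Mir143 stood at 1.02 and Mir145a at 1.24. Mir126a stood at 0.998, Mir222 at 1.06 and Mir221 at 1.46. Mir451a stood at 0.837, Mir144 at 0.956 and Mir486 at 1.08. Mir223 stood at 1.03, Mir150 at 1.41 and Mir155 at 1.74. A sum therefore need not describe each gene of its list. The part that these cell types have in the shift of Mir208a was not tested.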

How the data were processed

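Small RNA libraries of 2 pools of embryonic day 16.5 mouse hearts were sequenced. The authors deposited raw counts of reads per miRNA gene on mm10 with annotation M4, per the README deposited beside each table; for aligner, counter and trimming nothing is stated in the sources used here. Each table had 3 count columns and 4 lines that name no gene. The second count column, with the larger gene total, was taken as sense. The reads comprised 42.6% sense gene counts in replicate 1 (15207730 reads) and 45.3% in replicate 2 (12885555 reads). The lines that name no gene stayed out of totals: they held 29.5% and 31.9% multimapping, 22.4% and 17.2% unmapped and, for the sense column, 5.56% and 5.61% reads outside the listed genes. A count of 0 allows up to 3 counts, or 0.463 and 0.514 CPM.

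Names and positions came from GENCODE M21, which matched 1894 of 1973 identifiers, and sequences from RefSeq. CPM, the exact Poisson, Wilson and Clopper-Pearson 95% intervals and the Fisher and binomial tests were computed in Python 3.11.15 with SciPy 1.17.1. TMM factors and dispersion came from edgeR 4.0.16 and size factors from DESeq2 1.42.0 in R 4.3.3. With a single group, edgeR's quasi-likelihood test had no contrast. Log2 ratios between libraries had 0.5 added to each count. The binomial test was checked on simulated counts. Alternatives were other scalings, denominators, count limits, no minimum fold, the column of both strands and leaving out each replicate.

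The members and lists were chosen with earlier results of these data known. Named genes are the members and hosts, the other muscle genes and the 3 genes nearest in level to each member. Genes sharing seed bases or 20-base runs with a member and the highest gene of each marker list are also named. Mir22, the pairs of neighbours and the genes with the largest level among hosted genes were named after values were seen. The same holds for the other genes of the smooth muscle, endothelial, erythroid and leukocyte lists.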

Additional observations from a re-analysis of the deposited data

Results flagged for a closer look

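At Mir1b, from the list of other muscle genes, opposite-strand reads exceeded the limit of 3 counts that a count of 0 allows, with 115 counts in replicate 1 and 135 in replicate 2, against 6 and 13 sense counts. The opposite-strand column is outside the measurement of levels, and the design has no control samples to compare it with. Which transcript these opposite-strand reads came from was not tested. At Mir208a, Mir208b and Mir499 the same column held 0 counts in both libraries.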

How the results depend on the processing

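For the 3 genes, their pairs and the comparison of the pools, 71 values were recomputed. Of these, 51 kept their direction and side of the threshold, moved by less than the spread or stayed within a set fold limit. The fold limit applied to the numbers of genes differing between the pools. Another 18 moved and 2 passed a looser threshold, and no log2 ratio changed direction. Levels and numbers of genes have no direction. For ratios between libraries, count limits and the minimum fold could not change it, only another scaling or the column of both strands. With 2 libraries a single library always lies within 1 SD of the mean, so leaving out a replicate could not count as moved. The pair ratios could not change with both strands either, as the 3 genes had no opposite-strand counts. Those entries among the 51 say nothing about stability. With TMM or DESeq2 scaling the levels moved by less than 1 SD. The factors of each scaling balance out over the 2 libraries, so the means could hardly move. These entries say nothing about stability either. With the column of both strands Mir208b stood at 54825 CPM, Mir499 at 2441 CPM and the summed share at 6.34%, since the total is larger. Per 1000000 of all reads Mir208a stood at 2889, Mir208b at 25595 and Mir499 at 1140, and the share was 2.96%. Without Mir143, the most abundant gene, in the total, Mir208b stood at 64478 CPM, Mir499 at 2871 CPM and the share at 7.46%. The 12 genes differing between the pools (6 higher and 6 lower in replicate 2) became 21 (10 and 11) with no count filter, 6 (4 and 2) with at least 100 counts in each library and 169 (95 and 74) with no minimum fold, where Mir208a (0.26) and Mir208b (-0.016) passed. The log2 ratio of Mir208a ranged from 0.23 to 0.26 and that of Mir208b from -0.041 to -0.016. For Mir499 it ranged from 0.011 to 0.036 and its adjusted p by the exact binomial test from 0.0413 (256 genes tested) to 0.629 (total-count scaling), so that its place against the threshold without a minimum fold depends on these choices. Without either replicate, values of single libraries remain, from 57432 to 59090 CPM for Mir208b, 6028 to 7084 for Mir208a and 2584 to 2604 for Mir499, and no comparison of pools can be made. No paired analysis was possible because the labels give a single group. With 2 libraries the SD rests on 1 degree of freedom.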

Other observations

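Among the 365 detected genes, 173 lay within a protein-coding gene of the same strand. Mir208b ranked 3 of these 173 in both libraries, after Mir126a in Egfl7 and Mir335 in Mest, and ahead of Mirlet7g in Wdr82. Mir208a ranked 12 in both, and Mir499 27 in replicate 1 and 26 in replicate 2. The miRNA of the beta myosin gene was therefore among the most abundant host-gene miRNAs of the embryonic heart by counted reads.

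Mir208a and Mir208b were also set beside other neighbours, a description chosen after their values were seen. Of detected genes next to each other on the same strand within 50000 bases there were 119 pairs, in 16 of which both genes had at least 1000 CPM. The levels of Mir208b and Mir208a differed by 3.15 on the log2 scale, which was the median of the 119 pairs. Over the 16 abundant pairs, to which this pair belongs, the median was 2.09, and 5 of the 16 differed more. Their shifts between the pools differed by 0.27 on the log2 scale, against a median of 0.22 over the 119 pairs, with 48 of them larger, and a median of 0.22 over the 16 abundant pairs, with 4 larger. Many such pairs belong to common clusters and are not independent of each other.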
